A study of Mus musculus with 26 samples.

Results

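The genes of the translation initiation factors were taken as all symbols that occur in the 3 deposited expression tables and begin with Eif followed by a digit from 1 to 6. This gave 55 genes of 24412, chosen by name and by no measured value. Their levels are given as TPM, each gene's share of all transcripts in a library after correction for transcript length, in 26 RNA-seq libraries of mouse (C57BL/6J) oocytes and early embryos that form 13 groups of 2. Per the labels, females with the Zp3-Cre transgene, whose promoter is active in growing oocytes, and floxed alleles of Kdm3a and Kdm3b (Kdm3a f/f; Kdm3b f/f) gave oocytes without these H3K9 demethylases. Embryos made from such oocytes with wild-type sperm lack the maternal enzymes and are called mDKO. They keep a paternal copy of each gene. The genotype of the groups labelled control is not described further in the labels. Uninjected groups of both genotypes were collected at 3 stages: the MII oocyte, the 2-cell embryo early in that stage (E2C) and late in it (L2C). The titles of the L2C libraries without the maternal enzymes read Kdm3ab-DKO, while those at MII and E2C read Kdm3ab-mDKO. All are called mDKO here. Other E2C embryos had been injected, control ones with mCherry only and mDKO ones with 1 of mCherry, Kdm3aWT and Kdm3aHA. Wild-type embryos that had received 1 of the same 3 were collected at the 4-cell stage (4C). Each library came from a pool of 12 to 20 oocytes or embryos.

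Translation initiation begins when eIF2, loaded with GTP and the initiator tRNA, joins the small ribosomal subunit together with eIF1, eIF1A, eIF3 and eIF5. The cap-binding eIF4F complex (eIF4E, the scaffold eIF4G and the helicase eIF4A) brings this assembly to the mRNA, which is then scanned for a start codon. Stress kinases phosphorylate eIF2 and so block its exchange factor eIF2B, and 4E-binding proteins hold eIF4E. Oocytes store much of their mRNA untranslated, with oocyte forms of some initiation factors, and the embryo's own transcription replaces the stored mRNA around the 2-cell stage.

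In the libraries as labelled, control MII oocytes had 8.08 and 8.83 TPM of Kdm3a where mDKO oocytes had 0.725 and 0.718, and 26.6 and 25 TPM of Kdm3b where mDKO oocytes had 1.75 and 1.87. At L2C, Kdm3a was at 28.4 and 26.3 TPM in mDKO against 34.1 and 43.8 TPM in control and was not called by limma (-0.49 ± 0.17, adjusted p = 0.0573), and Kdm3b was lower (-1.03 ± 0.32, adjusted p = 0.0383). Kdm3a stood at 2315 to 4122 TPM in the mDKO embryos injected with Kdm3aWT or Kdm3aHA. All 9 oocyte markers reached 1 TPM in every MII library, and all 6 early 2-cell markers did so in every E2C and L2C library. The 2 libraries of a group correlated with Pearson's r between 0.968 and 0.995 across genes. The second 4C mCherry library stood apart, with 7649 genes at 1 TPM or more against 8754 to 9313 in the other 4C libraries. Per the labels, MII libraries were made with a TruSeq kit and E2C and 4C libraries with 1 of 2 SMART-Seq kits. Which of these made each library, and the L2C kit, is not given, so stage and kit cannot be told apart. The labels do not say whether pools came from separate collections, so the p-values may reflect spread that is technical. In these bulk samples, fewer cells of a type and less RNA per cell cannot be told apart. Each library was also divided by a size factor, in place of using TPM as deposited. The log2 differences of single genes then moved by a median of over 0.1 in 8 of the 15 comparisons, and of up to 0.48 at 4C.

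Differences were tested with limma on log2(TPM + 1), which understates the change of low genes. Log2 differences are given with their standard error, and a gene is called where the p-value adjusted by the Benjamini-Hochberg method over all genes tested is below 0.05. Genes with at least 1 TPM in at least 2 libraries of a fit were tested. A gene and its antisense neighbour are counted together if counting ignored strand, and the labels do not say. Eif5b shares 1643 bases with Rev1, Eif3j1 shares 1107 bases with Spg11, and Eif2ak1 shares 487 bases with Aimp2, each on the other strand. Eif1ad (428 bases with Banf1), Eif2b4 (204 with Snx17), Eif4a2 (194 with Rfc4), Eif3m (82 with Ccdc73), Eif2d (78 with Rassf5) and Eif2a (72 with Serp1) have such overlaps too, and the levels of all of these are uncertain to that extent. Transcripts of other genes, mostly outside the tables, hold 65.5% of the 50-base stretches of Eif4ebp3 and 65.3% of those of Eif4a1. For Eif3m, Eif2s3x and Eif1 the shares are 37.3%, 36.2% and 31.6%, and for Eif2s2, Eif3h, Eif4a3 and Eif3e they are 27.8%, 26.2%, 24.4% and 22.0%. How reads were shared out there adds doubt to these levels.

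The 55 genes together made up 0.843% to 0.888% of all transcripts in MII oocytes and 1.95% to 2.47% at 4C. Their summed level was 8433 and 8676 TPM in control MII oocytes, 10669.8 and 10854 TPM in control E2C, and 13097 and 12057 TPM in control L2C. In mDKO it was 8878 and 8621 TPM in oocytes, 10753 and 10760.3 TPM at E2C, and 10937 and 10769 TPM at L2C. The genotypes overlapped in oocytes and at E2C, while both mDKO libraries lay below both control libraries at L2C. With 2 libraries a group the exact permutation test cannot give a p below 0.333, which is the value at L2C (two-sided). The 6 libraries at 4C ranged from 19540.2 to 24685 TPM.

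**Figure D1:**
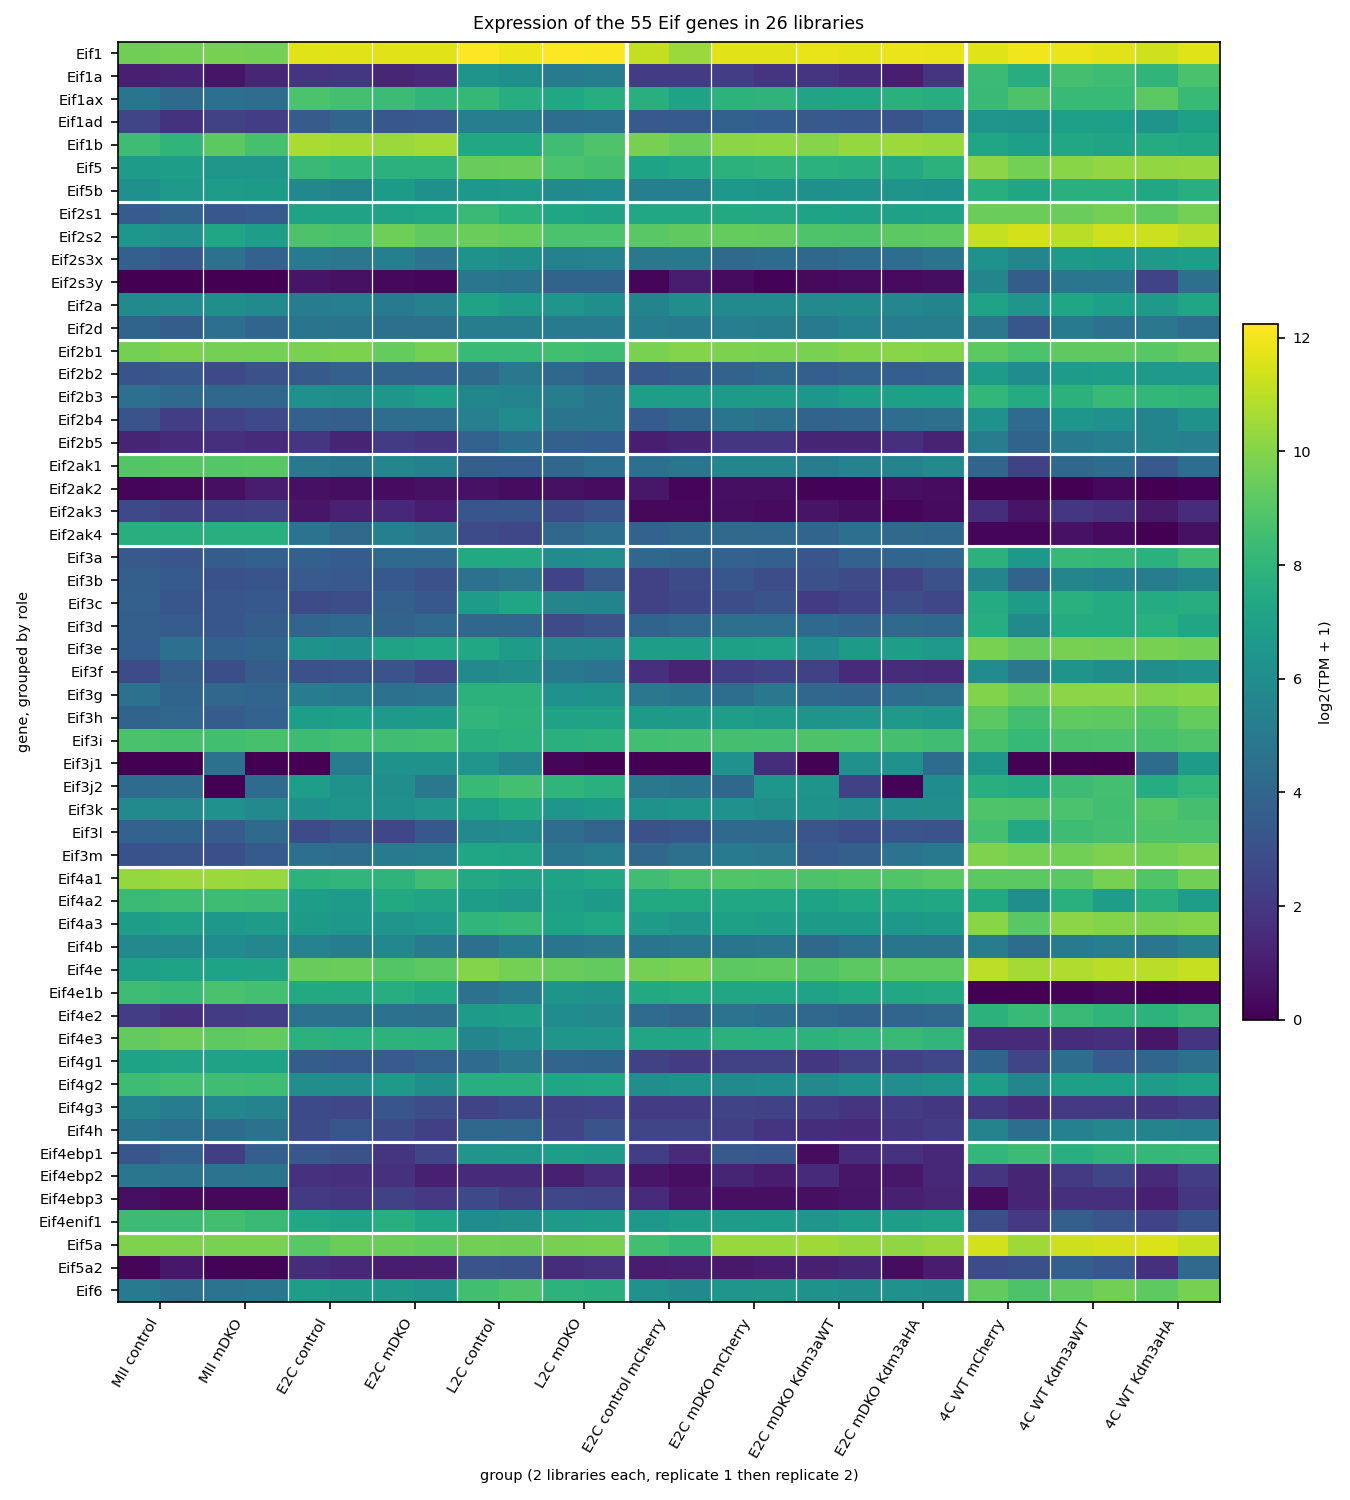
Level of each of the 55 Eif genes, as log2(TPM + 1) by colour, in the 26 libraries; columns are groups of 2 libraries and white lines part the groups and the functional roles. Eif1 is the brightest row in most libraries, Eif4e1b darkens from MII to 4C, most eIF3 rows brighten at L2C and 4C, and Eif3j1 jumps between libraries of the same group.

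Genes of start codon selection rose from oocyte to E2C. Eif1, which guards the accuracy of start codon choice, was the most abundant member from E2C on in the uninjected libraries, at 777 and 829 TPM in control MII oocytes, 3160.1 and 3347 TPM at E2C, and 4763 and 3950.1 TPM at L2C. The groups did not overlap between stages, and the steps were 2.02 ± 0.11 (adjusted p = 3.51e-06) and 0.42 ± 0.11 (adjusted p = 0.0132). Of the 7 genes of this role, 6 rose and 1 (Eif5b) fell between control MII and E2C, and 5 rose and 2 fell between control E2C and L2C. Among all genes tested, 74.0% were called at the earlier step, 35.9% higher and 38.1% lower. At the later step 68.2% were called, 36.7% higher and 31.5% lower, so a call at these steps is common. Over all 54 members tested, 25 rose and 18 fell at the earlier step, and 35 rose and 11 fell at the later one. The median member difference at the later step was 0.99, against 0.02 for all genes.

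The 2 genes for eIF1A, which joins eIF1 in scanning, followed different courses. Eif1ax, on the X chromosome, was at 26 and 17.5 TPM in control MII, at 439.8 and 399 TPM at E2C, and at 279 and 199 TPM at L2C, so it peaked at E2C. Its rise of 4.23 ± 0.22 (adjusted p = 2.75e-06) was the largest of any member at that step. Eif1a, the autosomal gene, was at 1.10 and 1.22 TPM, then 2.67 and 2.98 TPM, then 80.6 and 67.1 TPM in the same groups, which makes it low until L2C. Its rise of 4.29 ± 0.19 (adjusted p = 3.94e-06) was the largest from E2C to L2C. At 4C the ranges of the 2 genes overlapped, with Eif1a at 195 to 423 TPM and Eif1ax at 301 to 562 TPM. Eif1b, a paralogue of Eif1, did the reverse of Eif1a, from 1628 and 1524 TPM at control E2C to 161 and 157 TPM at L2C, and its change of -3.30 ± 0.15 (adjusted p = 4.12e-06) was the largest fall at that step.

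The subunits of eIF2 rose at both steps. Eif2s1, the alpha subunit that the stress kinases phosphorylate, was at 10.6 and 14.1 TPM in control MII, 134 and 133 TPM at E2C, and 305 and 223 TPM at L2C. Eif2s2, the beta subunit, went from 86.4 and 72.6 TPM to 458 and 417 TPM and then to 730.5 and 655 TPM. The gamma subunit has a copy on the X and another on the Y chromosome, and the X copy Eif2s3x went from 12.4 and 9.49 TPM to 30.9 and 28.4 TPM and then to 76.9 and 66.8 TPM. The changes at the earlier step were 3.34 ± 0.19 for Eif2s1, 2.45 ± 0.13 for Eif2s2 and 1.37 ± 0.17 for Eif2s3x, all called. Eif2s3y was listed at 0 in all 4 MII libraries, stood at 0.636 and 0.482 TPM in control E2C and reached 26.5 and 25.5 TPM at control L2C, a rise of 4.12 ± 0.19 (adjusted p = 4.58e-06). Eif2s3y lay below Eif2s3x in all 26 libraries. The opening 120 coding bases of both copies, from GENCODE M21 transcripts, are shown because reads over such positions tell the copies apart. Capitals mark the 19 positions that differ, and the full coding sequences, 1416 bases each, are 86.3% identical and share no stretch of 50 bases.
Eif2s3x: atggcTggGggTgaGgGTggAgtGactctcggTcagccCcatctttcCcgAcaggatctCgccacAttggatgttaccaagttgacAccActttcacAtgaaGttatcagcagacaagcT
Eif2s3y: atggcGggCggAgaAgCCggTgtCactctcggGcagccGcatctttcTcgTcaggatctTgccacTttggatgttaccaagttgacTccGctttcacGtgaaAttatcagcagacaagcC

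Of the eIF2 kinases, Eif2ak1 and Eif2ak4 fell at both steps, and Eif2ak3 fell and then rose. Eif2ak1, the heme-regulated kinase, was at 507 and 529 TPM in control MII, 29 and 26 TPM at E2C and 11.9 and 11.7 TPM at L2C. Eif2ak4, the kinase that senses missing amino acids, was at 206 and 205 TPM, then 23.9 and 17.8 TPM, then 6.02 and 5.12 TPM. The earlier steps were -4.19 ± 0.13 (adjusted p = 4.79e-07) and -3.25 ± 0.18 (adjusted p = 3.32e-06), among the 4 largest falls. Eif2ak3, the kinase of the endoplasmic reticulum, fell from 5.61 and 4.12 TPM to 0.682 and 1.21 TPM and then rose to 8.63 and 8.84 TPM, and Eif2ak2, the kinase that binds double-stranded RNA, stayed below 1 TPM in all 26 libraries and was not tested. Of the eIF2B exchange factor, Eif2b1 was far above the other subunits in oocytes, at 825 and 901 TPM in control MII against 1.42 to 20.9 TPM for Eif2b2 to Eif2b5. At control L2C, Eif2b1 was at 310.3 and 303 TPM, Eif2b2 at 18.1 and 28.8 TPM, Eif2b3 at 47.4 and 44.3 TPM, Eif2b4 at 39.7 and 59.2 TPM, and Eif2b5 at 13.3 and 20.5 TPM. Between control E2C and L2C, Eif2b1 fell by 1.54 and Eif2b3 by 0.56, while Eif2b2, Eif2b4 and Eif2b5 rose by 0.97, 1.9 and 2.54 (SE 0.25 to 0.32).

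The eIF3 complex, the largest of the initiation factors and the platform on which the others assemble, rose mainly between E2C and L2C. Of its 14 genes, 7 rose and 2 fell between control MII and E2C, where 35.9% of all genes rose and 38.1% fell. Between control E2C and L2C, 11 rose and 1 fell (Eif3i), where 36.7% of all genes rose and 31.5% fell. The median difference of the eIF3 genes was 2.3 at the later step. Eif3a, the core scaffold subunit, was at 9.65 and 8.26 TPM in control MII, 12.4 and 10.7 TPM at E2C, and 172 and 167 TPM at L2C. Eif3c rose by 4.07 ± 0.23 (adjusted p = 8.20e-06) to 104 and 147 TPM at control L2C, and Eif3m by 2.73 ± 0.14 (adjusted p = 5.88e-06) to 147 and 139 TPM. Eif3i stood apart as the subunit already at 416 and 403 TPM in oocytes, and it was at 200.2 and 224 TPM at control L2C, a fall of 0.73 on the log2 scale. Eif3h rose at the earlier step by 2.86 ± 0.12, from 14.5 and 15.5 TPM to 111 and 121 TPM.

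The genes of the eIF4E family took opposite courses. Eif4e1b, known as an oocyte form of eIF4E, was at 343 and 306 TPM in control MII, 174 and 167 TPM at E2C, 23.1 and 31.6 TPM at L2C, and 0 to 0.182 TPM in the 6 libraries at 4C. Eif4e, the general cap-binding protein, was at 118 and 135 TPM, then 676 and 714 TPM, then 1011 and 810.4 TPM, and at 1535 to 2265 TPM at 4C. Eif4e1b thus lay above Eif4e in the 4 MII libraries and below it in the other 22. Eif4e3 went down alongside Eif4e1b, from 627 and 711 TPM in control MII through 235 and 218 TPM to 49.0 and 68.2 TPM at L2C, and Eif4e2 went up, from 3.62 and 2.40 TPM through 22.5 and 22.9 TPM to 109.6 and 109.7 TPM. The steps between control E2C and L2C were -2.61 ± 0.16 for Eif4e1b, -1.95 ± 0.17 for Eif4e3 and 2.22 ± 0.18 for Eif4e2, all called. Eif4e and Eif4e1b have coding sequences of 651 and 732 bases that are 65.5% identical over 646 aligned bases.

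Most scaffolds and helicases were highest in oocytes and fell by E2C. Eif4g1 was at 137 and 140.1 TPM in control MII and at 11.1 and 10.1 TPM at E2C, a difference of -3.58 ± 0.20 (adjusted p = 3.42e-06), and at 18.5 and 27.6 TPM at L2C. Eif4g2, a relative without the eIF4E-binding part, fell from 350.4 and 385 TPM to 66.2 and 63.7 TPM and rose to 205 and 206 TPM. Eif4g3 fell from 43.6 and 35.9 TPM to 5.67 and 5.02 TPM and was not called at the later step, at 4.78 and 5.53 TPM. Eif4a1, the main helicase, was at 1253 and 1333 TPM, 243 and 268 TPM, and 164 and 143 TPM, and Eif4a2 at 324 and 348 TPM, 112 and 108 TPM, and 112 and 93.0 TPM. Eif4a3, which serves the exon junction complex rather than initiation, was at 109.8 and 126 TPM, 101 and 92.0 TPM, and 263 and 279.7 TPM, the only one of these 3 to rise between E2C and L2C (1.48 ± 0.12, adjusted p = 3.92e-05). Of the 4E-binding proteins, which block eIF4E, Eif4ebp2 fell from 27.2 and 24.6 TPM in oocytes to 2.38 and 2.25 TPM at E2C (-3.02 ± 0.19), Eif4ebp1 rose from 9.17 and 7.25 TPM at E2C to 83.8 and 87.6 TPM at L2C (3.24 ± 0.21), and Eif4ebp3 stayed at or below 5.41 TPM in all 26 libraries. Eif4enif1, the transporter that binds eIF4E and represses mRNAs in oocytes, fell at both steps, from 331 and 334 TPM through 163 and 131 TPM to 61.5 and 66.1 TPM.

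Eif5 and Eif6 rose at both steps, and Eif5a fell at the earlier one. Eif5, which triggers GTP hydrolysis on eIF2, was at 104 and 112 TPM in control MII, 316 and 272 TPM at E2C, and 669 and 708 TPM at L2C. Eif6, which keeps the ribosomal subunits apart, was at 32.5 and 23.0 TPM, then 112 and 102 TPM, then 369 and 452 TPM. Eif5b, which joins the ribosomal subunits, fell by 0.74 to 52.0 and 45.4 TPM at E2C and rose by 0.94 to 92.5 and 96.5 TPM at L2C. Eif5a was at 943 and 934 TPM, 552 and 728 TPM, and 790.4 and 779 TPM (-0.56 ± 0.14, then 0.31 ± 0.14, not called), above its paralogue Eif5a2 in all 26 libraries, and Eif5a2 reached 7.68 and 7.15 TPM at control L2C from 2.00 and 1.57 TPM at E2C.

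**Figure D2:**
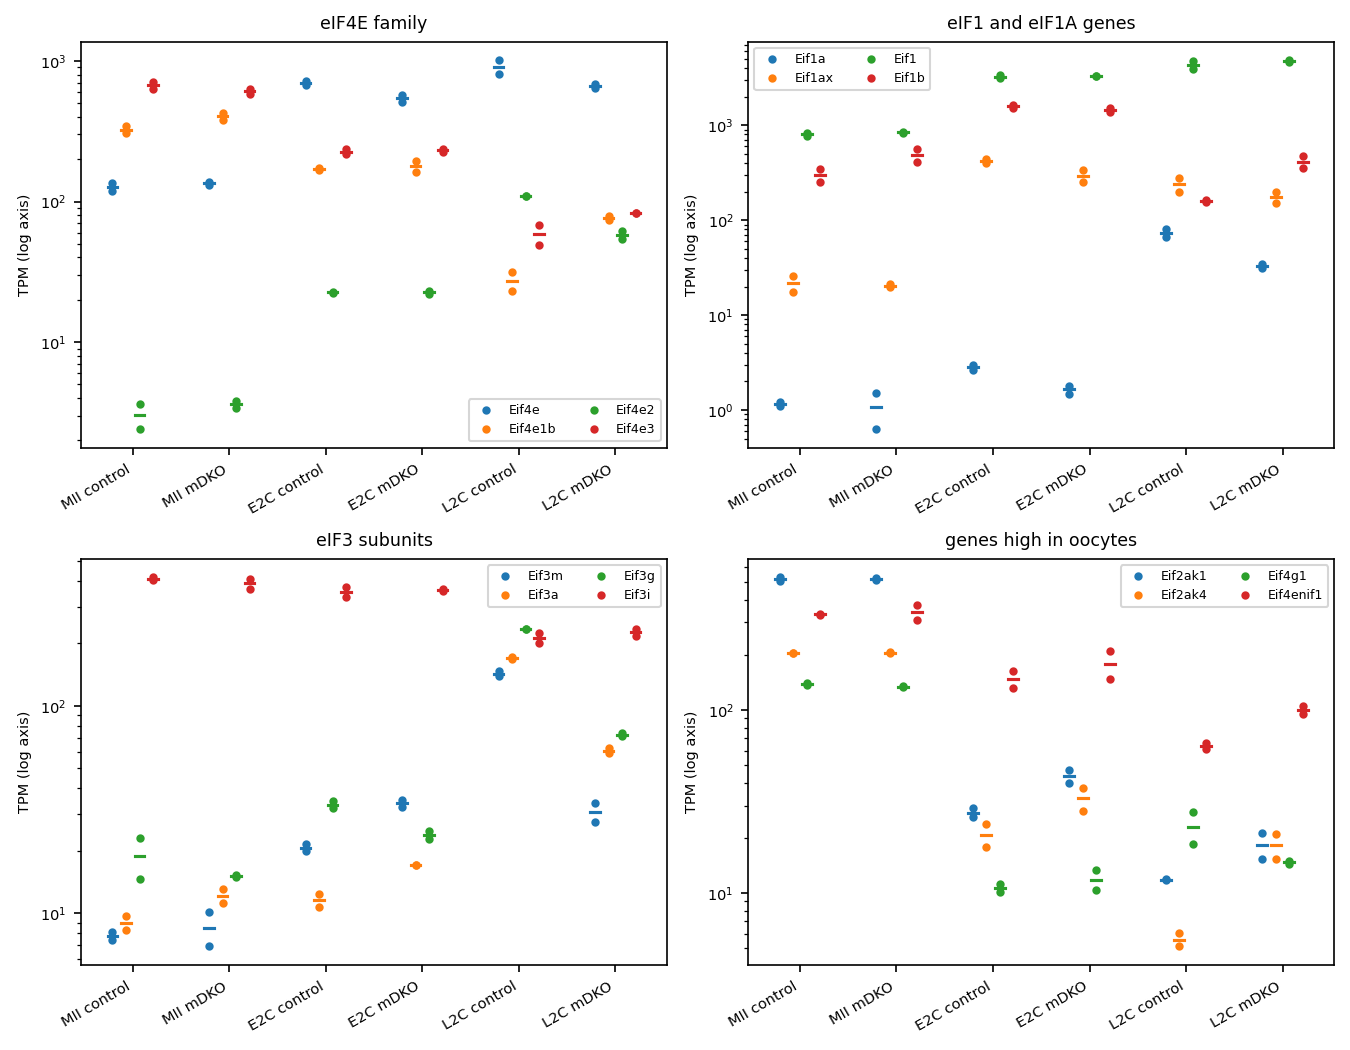
Level in TPM on a log axis of 4 genes in each of 4 sets, by stage and genotype in the uninjected libraries; points are libraries and bars group means. Eif4e1b and Eif4e3 fall while Eif4e and Eif4e2 climb; at L2C the mDKO points lie below the control points for Eif1a, Eif4e2, Eif3m, Eif3a and Eif3g, and above them for Eif4e1b, Eif1b, Eif2ak4 and Eif4enif1.

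In MII oocytes no Eif gene was called between mDKO and control. Of 50 genes tested, 0 were called by limma and 5 had an unadjusted p under 0.05, while 4.25% of all genes were called, 3.41% lower and 0.845% higher. The largest of these 5 were Eif2s2, at 86.4 and 72.6 TPM in control and 151 and 115 TPM in mDKO (0.73 ± 0.16, adjusted p = 0.074), and Eif1b (0.70 ± 0.21, adjusted p = 0.121). Eif2ak1, Eif2ak4, Eif4a1, Eif4g1 and Eif4enif1, which all fell after the oocyte stage in control, differed by 0.05 or less.

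At E2C 5 Eif genes were higher in mDKO and 0 were lower, of 53 tested. Among all genes 14.4% were called, 5.38% higher and 8.99% lower. Eif3e was at 76.0 and 70.9 TPM in control and 131 and 148 TPM in mDKO (0.91 ± 0.15, adjusted p = 0.00589). Eif5b was at 52.0 and 45.4 TPM against 100.3 and 70.1 TPM (0.78 ± 0.20, adjusted p = 0.0353), and Eif3m was at 21.5 and 19.8 TPM against 32.6 and 35.1 TPM (0.68 ± 0.18, adjusted p = 0.0392). Eif2s2 was at 458 and 417 TPM against 738 and 606 TPM (0.61 ± 0.13, adjusted p = 0.0205), and Eif2ak1 at 29 and 26 TPM against 46.9 and 40 TPM (0.64 ± 0.18, adjusted p = 0.0488). Leaving out mDKO replicate 1 gave 8 higher and 2 lower genes, and leaving out mDKO replicate 2 gave 12 higher and 4 lower. Leaving out either control library left 1 call and none of these 5, with the highest adjusted p over the alternatives between 0.0892 for Eif3e and 0.374 for Eif2ak1. The genes nearest to a call on the lower side were Eif1ax (-0.52 ± 0.15, adjusted p = 0.0584) and Eif4ebp1 (-0.99 ± 0.30, adjusted p = 0.0599). Marker lists moved here too. The 9 cumulus and granulosa markers summed to 111 and 108 TPM in control and 193 and 230.2 TPM in mDKO. These sums were mostly Serpine2 and Cyp19a1, with Amh at 0 in these 4 libraries. The same list was highest in MII oocytes, at 888 and 979 TPM in control and 902 and 950 TPM in mDKO. The 9 oocyte markers summed to 5737 and 5991 TPM against 9074 and 8199 TPM, and the 6 early 2-cell markers to 1067 and 1577 TPM against 167 and 209.8 TPM, with 5 of them called lower. Sperm markers summed to 37.9 and 52.6 TPM against 13.7 and 12.1 TPM, and the blood list to 10.3 and 17.7 TPM against 0.985 and 0.0471 TPM. The part of these markers in the Eif differences was not tested.

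At L2C the Eif genes differed widely. In mDKO 31 of 54 tested were lower than in control and 4 were higher, against 23.3% lower and 19.1% higher among all genes, or 42.4% called in all. The median difference was -0.66 over the Eif genes and -0.0007 over all genes. Both mDKO libraries lay below both control libraries for 37 of the 55 genes and above both for 9, against 37.6% and 35.8% of all genes. Of the 35 calls, 28 were kept under all alternatives that could test them, and leaving out a library kept 30 to 33.

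The eIF3 complex held 13 of the 31 lower genes, all of its subunits but Eif3i. Eif3j1 and Eif3j2, whose separate levels are uncertain, are both counted among them. Eif3m was at 147 and 139 TPM in control against 27.4 and 33.9 TPM in mDKO, with a difference of -2.19 ± 0.15 (adjusted p = 0.000192). That placed mDKO L2C near mDKO E2C, at 32.6 and 35.1 TPM, and Eif3m was not called between these stages in mDKO (-0.15 ± 0.22, adjusted p = 0.606). Eif3g was at 235 and 234 TPM against 71.4 and 73.8 TPM (-1.68 ± 0.11, adjusted p = 0.000189), and Eif3l at 53.1 and 59.6 TPM against 19.7 and 14.8 TPM (-1.66 ± 0.18, adjusted p = 0.00064). Eif3a was at 172 and 167 TPM against 59.2 and 62.3 TPM (-1.47 ± 0.12, adjusted p = 0.000274), and Eif3c at 104 and 147 TPM against 46.7 and 45.7 TPM (-1.41 ± 0.18, adjusted p = 0.00111). Unlike Eif3m, these subunits were called higher at mDKO L2C than at mDKO E2C, Eif3a by 1.78 and Eif3c by 2.01, where the control steps were 3.77 and 4.07. Eif3e (-1.33 ± 0.15) and Eif3d (-1.07 ± 0.23) were called lower at that step in mDKO. Eif3b was at 23.0 and 28.2 TPM against 4.51 and 9.74 TPM (-1.78 ± 0.32, adjusted p = 0.00452). Eif3d, Eif3e, Eif3f, Eif3h and Eif3k were lower by 0.69 to 1.21. Eif3i was at 200.2 and 224 TPM against 217 and 236 TPM (0.09 ± 0.12, adjusted p = 0.551), and its groups overlapped. Eif3e went from higher in mDKO at E2C to lower at L2C, at 154 and 107 TPM in control L2C against 53.9 and 55.8 TPM.

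The ternary complex role, which here lists Eif2a and Eif2d beside the eIF2 subunits, held 5 lower genes of 6 and none higher. Eif2s1 was at 305 and 223 TPM in control L2C and 150.1 and 131 TPM in mDKO (-0.89 ± 0.17, adjusted p = 0.00559), Eif2s2 at 730.5 and 655 TPM against 431 and 443 TPM (-0.66 ± 0.11, adjusted p = 0.00283). Both copies of the gamma subunit were lower by like amounts, Eif2s3x at 76.9 and 66.8 TPM against 40.3 and 42.1 TPM (-0.79 ± 0.14) and Eif2s3y at 26.5 and 25.5 TPM against 14.3 and 14.5 TPM (-0.81 ± 0.16). Eif2a, which can deliver initiator tRNA without GTP, was lower by 0.66 and Eif2d was not called (-0.13 ± 0.14). Of eIF2B, Eif2b3 (-0.62 ± 0.19) and Eif2b4 (-0.90 ± 0.20) were lower, and Eif2b1 (0.21 ± 0.10), Eif2b2 (-0.70 ± 0.26) and Eif2b5 (-0.41 ± 0.23) were not called.

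In the start codon role 4 genes were lower and 1 was higher of 7. Eif1a was at 80.6 and 67.1 TPM in control and 31.7 and 34.6 TPM in mDKO (-1.13 ± 0.15, adjusted p = 0.0014), while Eif1ax, at 279 and 199 TPM against 153 and 199.6 TPM, was not called (-0.43 ± 0.19, adjusted p = 0.114). Eif1ad, Eif5 and Eif5b were lower by 0.79, 0.72 and 0.67. Eif1 was at 4763 and 3950.1 TPM against 4845 and 4604 TPM and was not called (0.12 ± 0.12). Its paralogue Eif1b was higher, at 161 and 157 TPM against 356 and 472 TPM (1.36 ± 0.15, adjusted p = 0.000663).

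The genes higher in mDKO at L2C included Eif4e1b, the oocyte form of eIF4E, and Eif4enif1, the transporter that binds eIF4E. Eif2ak4 was at 6.02 and 5.12 TPM in control and 15.4 and 21.0 TPM in mDKO (1.54 ± 0.22, adjusted p = 0.00193), Eif4e1b at 23.1 and 31.6 TPM against 78.9 and 74.5 TPM (1.47 ± 0.18, adjusted p = 0.000906), and Eif4enif1 at 61.5 and 66.1 TPM against 94.6 and 105 TPM (0.64 ± 0.13, adjusted p = 0.00733). Together with Eif1b, these are the 4 higher genes, and each fell between control E2C and control L2C in a comparison that shares the control L2C libraries. Of the other 7 members that fell at that step, 6 were not called in mDKO at L2C: Eif4e3 (0.51 ± 0.17, adjusted p = 0.0504), Eif2ak1 (0.58 ± 0.21, adjusted p = 0.0606), Eif4a1 (-0.04 ± 0.14), and Eif2b1, Eif1ax and Eif3i as given above. The last, Eif2b3, was lower in mDKO. Eif4e was lower, at 1011 and 810.4 TPM against 684 and 638 TPM (-0.45 ± 0.13, adjusted p = 0.0276), as were Eif4e2 (-0.92 ± 0.13), Eif4a3 (-0.89 ± 0.12), Eif4g2 (-0.44 ± 0.11) and Eif4h (-1.22 ± 0.24), a cofactor of eIF4A. The Eif4e call was lost without control replicate 1, without mDKO replicate 2, after size-factor scaling and without the filter (adjusted p of at most 0.0915), and the Eif4enif1 call without mDKO replicate 2 (adjusted p = 0.0521). Eif4a2 (0.10 ± 0.14), Eif4g1 (-0.59 ± 0.22), Eif4g3 (-0.19 ± 0.23), Eif4ebp1 (0.27 ± 0.14), Eif4ebp2 (-0.19 ± 0.28), Eif4ebp3 (0.10 ± 0.24), Eif2ak3 (-0.25 ± 0.22) and Eif5a (0.12 ± 0.10) were not called. Eif6 was at 369 and 452 TPM against 239 and 209.8 TPM (-0.86 ± 0.14), and Eif5a2 at 7.68 and 7.15 TPM against 1.99 and 2.3 TPM (-1.42 ± 0.23).

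Stage markers moved with genotype at L2C as well. The 6 early 2-cell markers summed to 786 and 585 TPM in control and 2353 and 1886 TPM in mDKO, and all 6 were called higher. The 9 oocyte markers summed to 3364 and 3003 TPM against 7573 and 7727 TPM. The 5 markers of late 2-cell and 4-cell embryos summed to 265 and 316 TPM against 392 and 359 TPM. Cumulus and granulosa markers summed to 27.4 and 33.3 TPM against 85.6 and 86.3 TPM, with Ptx3 at 0 in all 4 libraries. The blood list summed to 183 and 312 TPM in control against 28.9 and 29.0 TPM in mDKO, almost wholly Hba-a1, with Hbb-bs at 0. Their part in the Eif differences was not tested.

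**Figure D3:**
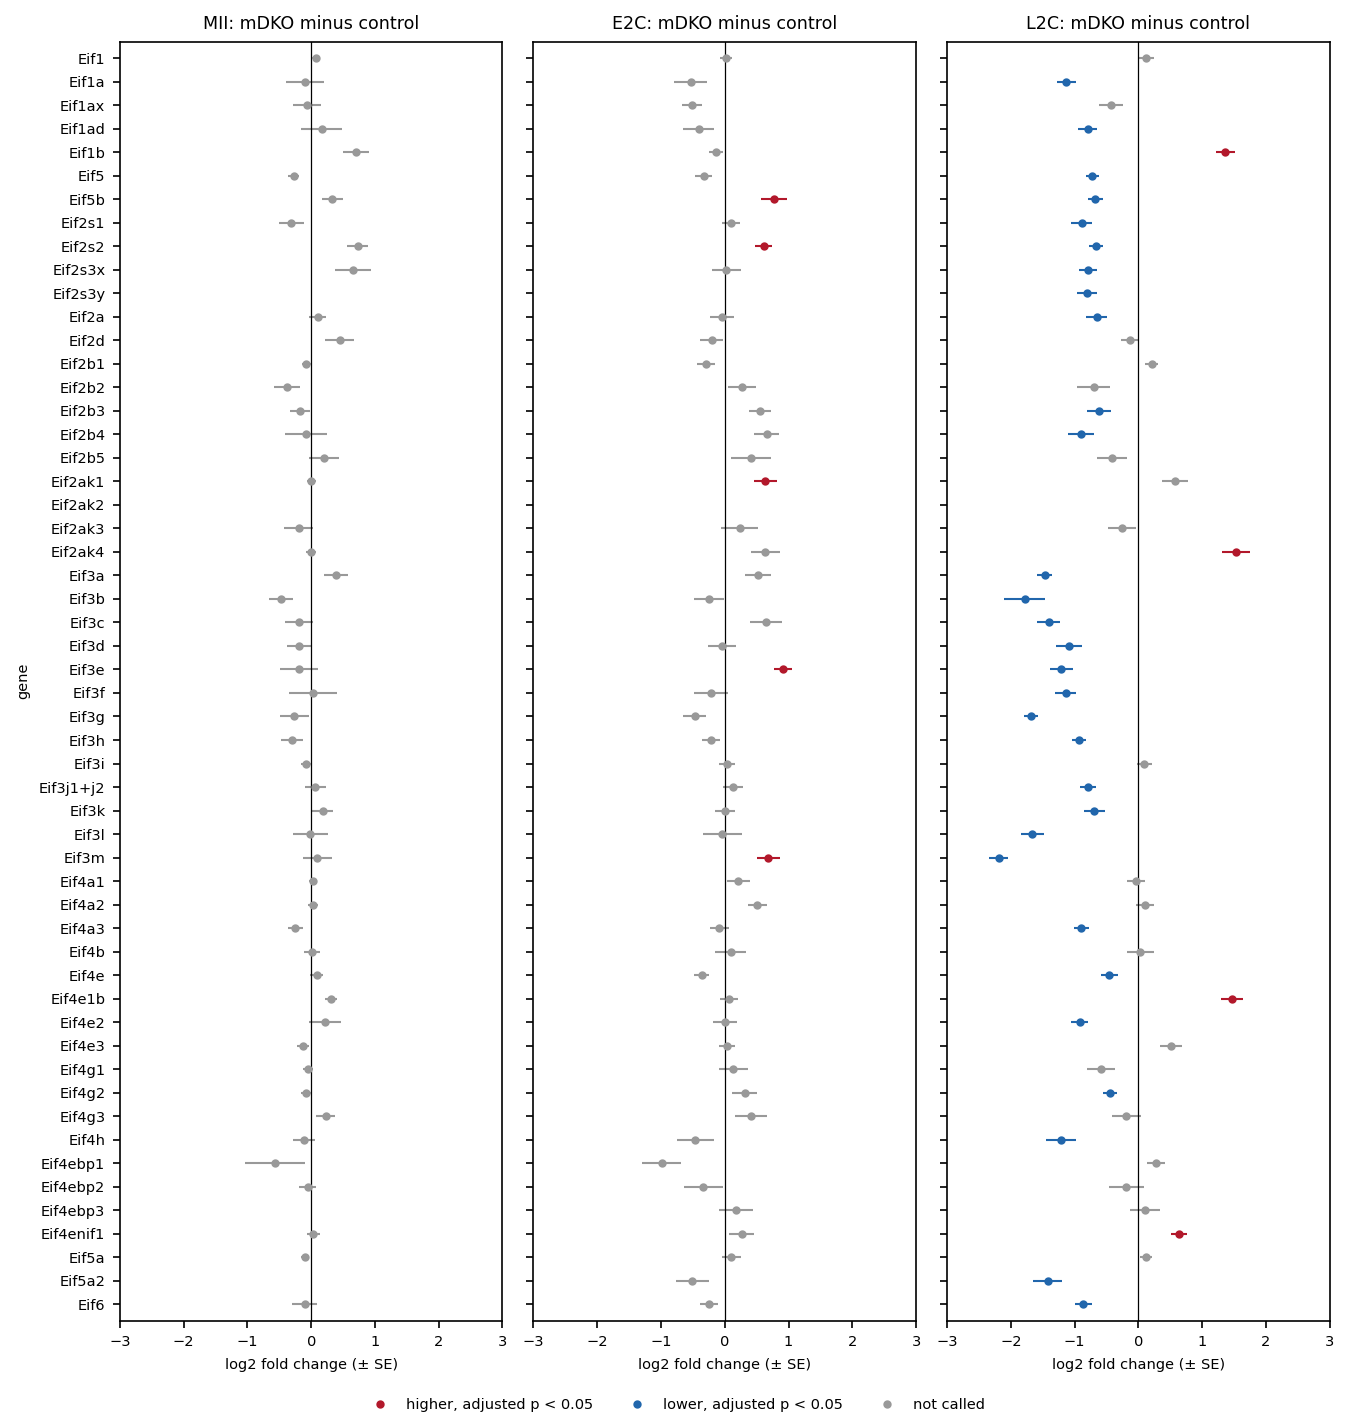
Log2 difference between mDKO and control with its standard error for each Eif gene tested at MII, E2C and L2C, with Eif3j1 and Eif3j2 summed; red marks genes called higher, blue genes called lower and grey genes not called. No gene is coloured at MII, 5 are red at E2C, and at L2C all eIF3 subunits but Eif3i are blue, with Eif1b, Eif2ak4, Eif4e1b and Eif4enif1 in red.

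The mDKO effect differed between L2C and E2C, as an interaction over the 12 uninjected libraries, for 22 of 54 genes, 18 of them in the direction of a lower value at L2C and 4 of a higher. Among all genes 25.7% were called in this test, 12.5% lower and 13.2% higher. The eIF3 genes held 10 of the 18, with the uncertain Eif3j1 counted among them. Beside Eif3j1 the lowest value was that of Eif3m (-2.87 ± 0.26, adjusted p = 6.42e-05), followed by Eif3e (-2.12 ± 0.36) and Eif3c (-2.05 ± 0.31). In mDKO between E2C and L2C, 21 genes rose and 17 fell of 54, while 53.6% of all genes were called, 32.1% higher and 21.5% lower. The largest rises there were those of Eif4ebp1 (4.51 ± 0.44), from 2.64 and 4.84 TPM to 114 and 94.5 TPM, Eif2s3y (3.72 ± 0.18), Eif1a (3.69 ± 0.26) and Eif3c. The largest falls beside Eif3j1 were those of Eif1b (-1.81 ± 0.19), Eif2b3 (-1.73 ± 0.21) and Eif4e3 (-1.47 ± 0.12).

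Genes that work beside the initiation factors were counted from lists, and their counts stand against the 23.3% lower and 19.1% higher among all genes at L2C. In mDKO L2C against control, 5 of 6 re-initiation and eIF2 exchange mimic genes were lower and none higher, among them Bzw2 (-1.52 ± 0.20), a mimic of eIF5, and Denr (-1.13 ± 0.13), which helps ribosomes restart. Of the poly(A)-binding and mRNA-bound regulators 5 were lower and 4 higher of 14, with opposite values for the general poly(A)-binding protein Pabpc1 (-1.35 ± 0.13) and its oocyte relative Pabpc1l (1.65 ± 0.23). Pabpc1 was at 151 and 174 TPM in control and 60.6 and 65.6 TPM in mDKO, and Pabpc1l at 5 and 3.38 TPM against 15.0 and 15.2 TPM. Elongation genes were lower in 4 and higher in 1 of 8, termination and recycling genes lower in 3 and higher in 1 of 6, and signalling genes upstream of eIF4F lower in 3 of 9. Of the outputs of the integrated stress response, which follows eIF2 phosphorylation, 2 were lower and 1 higher of 8. The higher one was Ddit3, at 38.9 and 30 TPM against 107 and 136 TPM (1.79 ± 0.18, adjusted p = 0.000506). At E2C, where 5.38% of all genes were higher and 8.99% lower, 1 gene was higher and 1 lower of 6 in each of the termination and the re-initiation lists, and 1 was lower of 12 poly(A)-binding and mRNA-bound regulators. Of the 8 elongation, 9 signalling and 5 stress response genes tested, limma called 0, and 0 had an unadjusted p under 0.05.

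Injection of Kdm3a into mDKO embryos was compared with mCherry at E2C. Against control embryos that also received mCherry, mDKO embryos with mCherry had 20 Eif genes higher and 2 lower of 52, where 46.9% of all genes were called, 26.9% higher and 20.0% lower. Eif5a was at 369 and 279 TPM in control and 1326 and 1322 TPM in mDKO (2.04 ± 0.13, adjusted p = 1.45e-05), and Eif1 at 2210.0 and 1331 TPM against 3340.5 and 3319 TPM (0.96 ± 0.19, adjusted p = 0.00336). Eif4ebp1 was at 3.85 and 1.85 TPM against 9.68 and 9.06 TPM (1.48 ± 0.36, adjusted p = 0.00962), Eif5b at 38.2 and 38.1 TPM against 92.7 and 87.5 TPM (1.22 ± 0.10, adjusted p = 4.17e-05), and Eif3l at 7.21 and 8.30 TPM against 17.2 and 17.5 TPM (1.07 ± 0.15, adjusted p = 0.000689). For these 5 genes both mDKO libraries lay above both control libraries, as did 41.9% of all genes. The lower genes were Eif2s3x (-0.65 ± 0.14, adjusted p = 0.00589) and Eif4e (-0.55 ± 0.09, adjusted p = 0.00138), the latter at 816 and 871 TPM against 565 and 588 TPM. The counts fell to 12 without mDKO mCherry replicate 1 and to 14 without replicate 2. Cumulus and granulosa markers summed to 82.3 and 73.6 TPM in injected control and 341 and 335 TPM in mDKO with mCherry, with Foxl2 at 0 in all 4. Early 2-cell markers summed to 1152 and 1425 TPM against 219 and 247 TPM, and all 6 were called lower. Sperm markers summed to 33.1 and 44.2 TPM against 5.46 and 8.86 TPM. Their part in the Eif differences was not tested.

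Uninjected and injected E2C embryos gave 2 sets of libraries for the same genotypes. Of the 5 genes higher in uninjected mDKO, Eif5b, Eif2ak1 (0.94 ± 0.16) and Eif3m (0.72 ± 0.19) were also called with mCherry, which makes 3 of 5 and 3 of 20. With mCherry 26.9% of all genes tested were called higher, and the overlap of the sets over all genes was not counted. Eif2s2 (0.12 ± 0.07) and Eif3e (0.15 ± 0.19) were not called there. Eif5a differed by 0.10 ± 0.15 without injection, where it was at 552 and 728 TPM in control and 723 and 642 TPM in mDKO. Eif4ebp1 had values of -0.99 ± 0.30 without injection and 1.48 ± 0.36 with mCherry. The difference between these sets was not tested. The summed level of the 55 genes was 8540.3 and 7708 TPM in injected control, below all other E2C libraries.

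With Kdm3aWT in place of mCherry, 9 Eif genes were lower and 0 higher of 52, where 11.8% of all genes were called, 10.8% lower and 0.949% higher. Eif4ebp1 was at 9.68 and 9.06 TPM with mCherry and 0.346 and 1.75 TPM with Kdm3aWT (-2.43 ± 0.36, adjusted p = 0.00446). Eif3m was at 33.6 and 27.9 TPM against 10.2 and 12.2 TPM (-1.38 ± 0.19, adjusted p = 0.00347), and Eif3l at 17.2 and 17.5 TPM against 8.39 and 6.75 TPM (-1.10 ± 0.15, adjusted p = 0.00335). For these 3 genes both Kdm3aWT libraries lay below both mCherry libraries, as did 49.9% of all genes. Control embryos with mCherry had 3.85 and 1.85 TPM of Eif4ebp1, 15.3 and 21.7 TPM of Eif3m and 7.21 and 8.30 TPM of Eif3l. Eif3c (-0.75 ± 0.19), Eif1ax (-0.75 ± 0.17), Eif2b4 (-0.69 ± 0.16), Eif3g (-0.64 ± 0.17), Eif2s2 (-0.46 ± 0.07) and Eif2s1 (-0.37 ± 0.09) were the others. Without mCherry replicate 1 no Eif gene was called, without its replicate 2 there were 3, and without Kdm3aWT replicate 1 there were 5. The median of all genes was -0.19 in this comparison, and after size-factor scaling 3 Eif genes were called lower and 1 higher. Early 2-cell markers summed to 407 and 499.7 TPM with Kdm3aWT, above the 219 and 247 TPM with mCherry, and 5 of 6 were called higher. Their part in the Eif differences was not tested.

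The 4 eIF3 genes called lower with Kdm3aWT in the main fit are Eif3m, Eif3l, Eif3g and Eif3c. After size-factor scaling only 3 Eif genes of any role were called lower, so these 4 did not all keep their call. In mDKO at L2C all 4 were lower too, as was every eIF3 gene but Eif3i. The promoters of these 4, the 250 bases before the RefSeq start on GRCm38.p6, each hold the ETS-type motif CCGGAAG on either strand. They are shown for that reason, and a part of the motif in these differences was not tested. Capitals mark this motif and GGGCGG, an SP-type motif, with their reverse complements. The 2 motifs do not overlap in any of these promoters, and GGGCGG is not in that of Eif3g.
Eif3m, chr2:105017028-105017277, minus strand: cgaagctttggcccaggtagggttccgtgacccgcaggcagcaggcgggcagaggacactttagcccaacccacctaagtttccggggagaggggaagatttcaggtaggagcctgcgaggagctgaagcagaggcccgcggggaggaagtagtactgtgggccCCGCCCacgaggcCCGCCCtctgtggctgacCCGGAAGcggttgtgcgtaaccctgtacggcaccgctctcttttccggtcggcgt
Eif3l, chr15:79074973-79075222, plus strand: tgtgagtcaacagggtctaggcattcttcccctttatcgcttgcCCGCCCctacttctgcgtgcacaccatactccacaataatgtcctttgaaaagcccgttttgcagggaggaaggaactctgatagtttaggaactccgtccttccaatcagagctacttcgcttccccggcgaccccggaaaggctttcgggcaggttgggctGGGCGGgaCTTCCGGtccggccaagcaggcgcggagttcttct
Eif3g, chr9:20898591-20898840, minus strand: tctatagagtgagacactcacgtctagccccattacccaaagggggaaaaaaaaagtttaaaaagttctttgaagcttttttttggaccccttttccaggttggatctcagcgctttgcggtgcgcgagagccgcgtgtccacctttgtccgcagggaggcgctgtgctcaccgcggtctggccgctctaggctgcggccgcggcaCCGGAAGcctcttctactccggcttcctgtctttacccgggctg
Eif3c, chr7:126566367-126566616, minus strand: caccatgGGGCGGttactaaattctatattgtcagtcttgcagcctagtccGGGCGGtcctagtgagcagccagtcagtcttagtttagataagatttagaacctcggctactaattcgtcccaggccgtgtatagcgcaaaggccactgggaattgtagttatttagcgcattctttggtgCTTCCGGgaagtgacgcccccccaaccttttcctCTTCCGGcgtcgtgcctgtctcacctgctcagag

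Of the 55 genes 43 had a promoter in the RefSeq table, with 56 promoters in all. For 44 of the 56, the 25 bases after the start lie in a GENCODE transcript of the gene. The Eif promoters and all promoters were not matched for base composition in the shares that follow. CCGGAAG lay in 12 of these 56, or 21.4%, and in 6.91% of all 32851 promoters of the table cut to the same 250 bases. GGGCGG lay in 67.9% of the Eif promoters and in 32.7% of all, the E-box CACGTG in 19.6% and 6.02%, and TATAAA in 7.14% and 12.4%. The NRF1 motif was in 1.79% and 0.782%, the YY1-type AAGATGGC in 1.79% and 1.56%, TAATCC in 8.93% and 6.25%, and TGACGTCA in 0% and 1.55%. Among the 10 eIF3 genes with a promoter, CCGGAAG was found in 5, the 4 shown and Eif3d. The promoter of Eif1b, which was higher in mDKO at L2C, held it as well.

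Kdm3aHA differed from mCherry in 3 Eif genes, all lower, where 10.8% of all genes were called, 9.29% lower. Eif4ebp1 was at 2.34 and 1.59 TPM (-1.82 ± 0.36, adjusted p = 0.0144), Eif3l at 8.37 and 7.69 TPM (-1.02 ± 0.15, adjusted p = 0.00415) and Eif2s1 at 129 and 133 TPM (-0.37 ± 0.09, adjusted p = 0.0278). None of the 3 was called without mCherry replicate 1 or without replicate 2, and after size-factor scaling 2 were lower and 1 higher. Kdm3aHA and Kdm3aWT were compared directly, and 1 Eif gene of 52 was called, against 3.29% of all genes, 1.97% higher and 1.32% lower. It was Eif3m, at 24.6 and 29.5 TPM with Kdm3aHA and 10.2 and 12.2 TPM with Kdm3aWT (1.20 ± 0.19, adjusted p = 0.0214). The Eif3m call was lost without either Kdm3aHA library or without Kdm3aWT replicate 1, and 8 Eif genes were called without Kdm3aWT replicate 2. For Eif3l the direct difference was 0.08 ± 0.15 and for Eif4ebp1 0.61 ± 0.36, neither called. Kdm3a itself was at 4122 and 2315 TPM with Kdm3aWT and 4043 and 3907 TPM with Kdm3aHA.

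Compared with control embryos that received mCherry, mDKO embryos with Kdm3aWT had 8 Eif genes higher and 9 lower of 52, where 46.6% of all genes were called, 17.0% higher and 29.6% lower. After size-factor scaling the counts were 10 higher and 4 lower. Eif5a (2.06 ± 0.13), Eif1 (1.04 ± 0.19), Eif5b (0.92 ± 0.10) and Eif4e3 (0.78 ± 0.09) were the most raised, with Eif5a at 1442 and 1254 TPM against 369 and 279 TPM. Eif4h (-1.05 ± 0.20), Eif3g (-0.77 ± 0.17), Eif2s3x (-0.71 ± 0.14) and Eif4e (-0.69 ± 0.09) were the most lowered. Eif3l (-0.04 ± 0.15) and Eif4ebp1 (-0.95 ± 0.36, adjusted p = 0.0573) were not called against control, and Eif3m was lower (-0.66 ± 0.19, adjusted p = 0.0214).

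**Figure D4:**
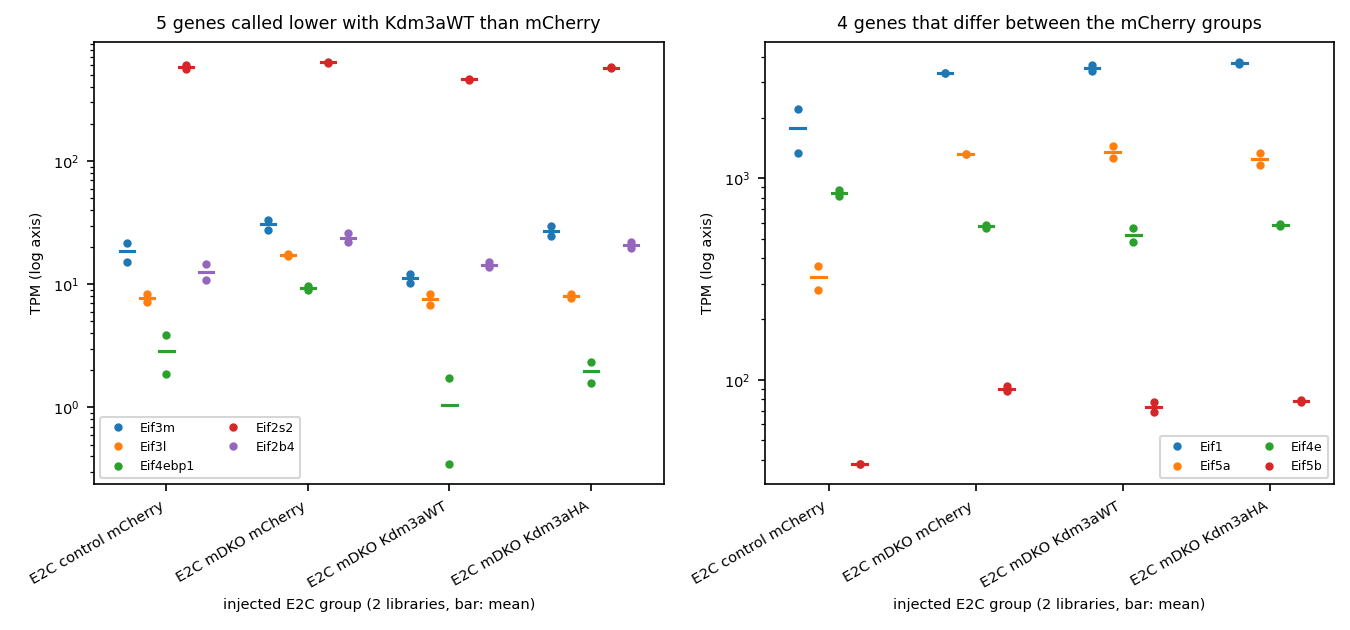
Level in TPM on a log axis of 9 Eif genes in the 4 injected E2C groups; points are libraries and bars group means. Eif4ebp1, Eif3m and Eif3l are lower in mDKO with Kdm3aWT than with mCherry, Eif3m with Kdm3aHA lies near its mCherry level, and Eif5a and Eif5b stay above control in all 3 mDKO groups.

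At 4C no Eif gene was called by limma in any of the 3 comparisons of injected wild-type embryos, with 52 tested. No gene of any kind was called, which is 0% of all genes, and the numbers with an unadjusted p under 0.05 were 776, 264 and 227 of all genes for Kdm3aWT against mCherry, Kdm3aHA against mCherry and Kdm3aHA against Kdm3aWT. Among Eif genes these numbers were 3, 0 and 1. Without 4C mCherry replicate 1, 6 Eif genes were called higher with Kdm3aWT, and 491 of 9501 genes tested were called, which is 5.17%. The only mCherry library left in that fit is replicate 2, the one that stood apart. Both Eif2s2, at 2000.0 to 2809 TPM, and Eif1, at 2647 to 4003 TPM, were among the most abundant Eif genes at 4C, with Eif5a at 1428 to 2961 TPM and Eif4e as given above. Eif2s3y was at 48.3 and 11.1 TPM with mCherry, 27.4 and 27.4 TPM with Kdm3aWT and 4.46 and 22.2 TPM with Kdm3aHA. The 2 mCherry libraries of Eif2s3y spanned the values of all other 4C libraries but 1.

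The separate levels of Eif3j1 and Eif3j2, the copies of the gene for the eIF3j subunit, are uncertain in these tables. How reads were assigned to them was not tested. The coding sequences, 783 bases of Eif3j1 on chromosome 2 and 789 bases of Eif3j2 on chromosome 18, are identical over all 783 aligned bases. Of the 50-base stretches of the longest coding transcripts, 90.8% of those in Eif3j2 and 39.4% of those in Eif3j1 also occur in the other gene. The other 7 pairs of paralogues compared (Eif1a and Eif1ax, Eif2s3x and Eif2s3y, Eif4a1 and Eif4a2, Eif4e and Eif4e1b, Eif5a and Eif5a2, Eif4g1 and Eif4g3, Eif4ebp1 and Eif4ebp2) are 65.5% to 86.3% identical and share none. No Eif3j sequence is printed.

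Libraries of the same group split eIF3j between the copies in opposite ways. In mDKO oocytes, Eif3j1 and Eif3j2 were at 22.4 and 0 TPM in replicate 1 and at 0 and 18.2 TPM in replicate 2. In mDKO E2C with Kdm3aWT they were at 0.0663 and 80.2 TPM in replicate 1 and at 72.7 and 4.29 TPM in replicate 2, and with Kdm3aHA at 72.3 and 0.0686 TPM and at 19.1 and 60.7 TPM. Eif3j1 lay above Eif3j2 in 6 of 26 libraries and below it in 20. The sum of the copies was steadier than either copy in mDKO oocytes, control E2C and the injected mDKO E2C groups, but not in all groups. Its means were 19.3 ± 1.02 TPM in control oocytes, 20.3 ± 2.96 TPM in mDKO oocytes, 111 ± 3.43 TPM in control E2C and 123 ± 21.3 TPM in mDKO E2C (SD, n = 2 each). In mDKO E2C, Eif3j1 alone had an SD of 3.45 TPM. The sum was 406 ± 29.5 TPM in control L2C and 236 ± 25.5 TPM in mDKO L2C. At 4C it was 240 ± 81.5 TPM with mCherry and 295 ± 121 TPM with Kdm3aHA. There Eif3j2 alone was steadier, with SDs of 19.5 and 61.5 TPM.

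Taken as separate genes, the copies gave values that their sum does not. At L2C in mDKO, Eif3j1 was at 0.149 and 0.012 TPM against 82.2 and 49.1 TPM in control, a difference of -5.90 ± 0.28 (adjusted p = 0.000146), and Eif3j2 at 254 and 218 TPM against 303 and 378 TPM (-0.53 ± 0.14, adjusted p = 0.0239). Summed before the test, a choice made after seeing the data, eIF3j differed by -0.79 ± 0.12 (adjusted p = 0.00261), which is within the range of the other eIF3 subunits. The sum did not pass the test at MII (0.07 ± 0.16, adjusted p = 0.841) or E2C (0.13 ± 0.16, adjusted p = 0.651). In control it rose by 2.47 ± 0.12 from MII to E2C and by 1.86 ± 0.12 from E2C to L2C. Among injected embryos the sum was 27.9 ± 2.02 TPM in control with mCherry and 89.8 ± 1.43 TPM in mDKO with mCherry (SD, n = 2 each), a difference of 1.66 ± 0.10 (adjusted p = 1.19e-05) that neither copy showed by itself (adjusted p = 0.127 for Eif3j1 and 0.853 for Eif3j2). Kdm3aWT (-0.19 ± 0.10, adjusted p = 0.267) and Kdm3aHA (-0.24 ± 0.10, adjusted p = 0.191) did not differ from mCherry past the threshold.

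**Figure D5:**
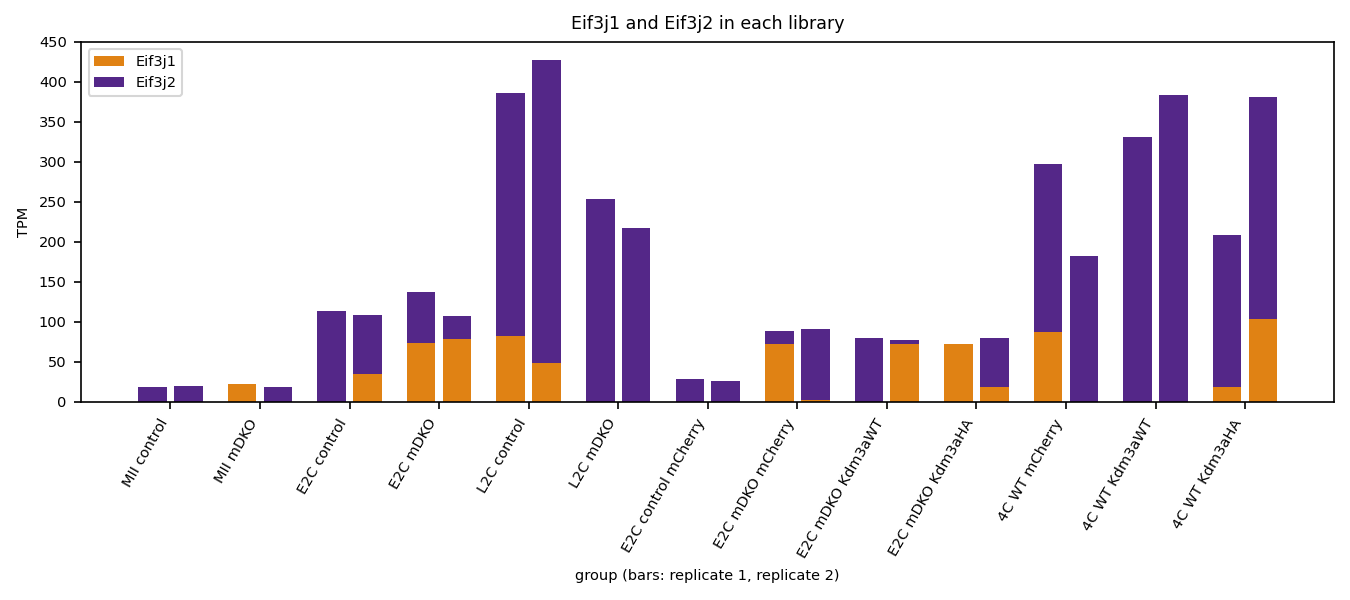
Level of Eif3j1 and Eif3j2 in TPM, stacked, in each of the 26 libraries in pairs of replicates. The height of the bars is alike within most groups while the share of Eif3j1 changes from none to nearly all, and control L2C bars stand at about 386 and 427 TPM against 254 and 218 TPM in mDKO.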

How the data were processed

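The authors deposited TPM values, 1 column per library, in 3 tables that list the same symbols; the unit is taken from the file headers and from library totals near 1000000. Per the submitters' processing notes, the build was mm10 and the tools were RSEM 1.3.1, SAMtools 1.9, Bowtie2 2.3.4.1 and STAR 2.7.10b, without their roles. The sources used here do not give the annotation, strand setting or filters. TPM keeps no sequencing depth, so no counting error can be given, and RSEM-type tables share out reads that fit several genes.

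Values were tested as log2(TPM + 1), with limma 3.58.1 in R 4.3.3 (linear fit, empirical Bayes with a trend), two-sided, adjusted over all genes with at least 1 TPM in 2 libraries. Each uninjected mDKO comparison used the 4 libraries of its stage; stage steps used the 6 libraries of a genotype; the 8 injected E2C and 6 injected 4C libraries each shared a fit, and the interaction used 12. The fits were tested on simulated data. Summed TPM was compared by exact permutation. Named were fixed members of each role, plus the 4 largest called rises and falls per comparison. The members, lists and markers were chosen with earlier results of these data known. All 26 columns matched a sample, and 0 columns were left out. The 6 pathway lists and 6 marker lists (oocyte, early 2-cell, late 2-cell and 4-cell, cumulus and granulosa, sperm, blood) came from textbook genes. Markers of late 2-cell and 4-cell embryos summed to 77.7 to 287 TPM at 4C and to 403 to 567 TPM at E2C. That list was thus not highest at the stages it is named for. Sperm markers summed to at most 52.6 TPM in any library. Positions, promoters and RefSeq starts are GRCm38.p6, which matched all 55 genes, and coding sequences are from GENCODE M21. Alternatives were another pseudocount (0.1), no filter, size-factor scaling, a replicate block, wider fits and leaving out each library.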

Additional observations from a re-analysis of the deposited data

Results flagged for a closer look

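For 22 Eif genes the mDKO effect differed between L2C and E2C by the interaction test of limma over the 12 uninjected libraries. All values are log2 differences of the effect, L2C minus E2C.

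Of the eIF3 subunits, Eif3m had -2.87, Eif3e -2.12, Eif3c -2.05, Eif3a -1.99, Eif3l -1.62, Eif3b -1.54, Eif3g -1.21, Eif3d -1.05 and Eif3h -0.72. Eif3j1 had -9.59, but its share of the summed copies changed between libraries of the same group, and how reads were assigned was not tested. The summed copies gave -0.91 ± 0.22 (adjusted p = 0.0127). Eif3e and Eif3m were called higher in mDKO at E2C and lower at L2C.

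In the other roles, values below 0 were those of Eif2b4 (-1.55), Eif5b (-1.45), Eif2s2 (-1.27), Eif2b3 (-1.17), Eif2s1 (-0.99), Eif4e2 (-0.92), Eif4a3 (-0.81) and Eif4g2 (-0.76). Eif5b and Eif2s2 were likewise called higher at E2C and lower at L2C.

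The 4 genes with values above 0 were Eif1b (1.49), Eif4e1b (1.40), Eif2ak4 (0.90) and Eif2b1 (0.51). For Eif2b1 neither stage was called by itself. Leaving out 1 library kept 15 to 20 of the 22 calls, and no member changed sign.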

How the results depend on the processing

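Of 4922 values of single genes under the alternatives, 4627 stayed on the same side of the threshold, 112 passed it anew and 183 no longer passed it. None changed sign where the gene was called in the main fit or under the alternative. Sign changes of genes called in neither were not counted. For mDKO against control the number of Eif genes called at MII was 0, and 1 in a fit of all 12 uninjected libraries. At E2C it was 5, and 1 without the filter and 8 with size-factor scaling. For Kdm3aWT against mCherry it was 9, and 5 without the filter and 4 with scaling, and for Kdm3aHA against Kdm3aWT 1 became 0 without the filter. Leaving out a library gave 0 to 1 calls at MII, 1 to 16 at E2C, 12 to 18 for mDKO against control with mCherry, 0 to 10 for Kdm3aWT against mCherry, 0 to 3 for Kdm3aHA against mCherry, 0 to 8 for Kdm3aHA against Kdm3aWT, 0 to 6 at 4C for Kdm3aWT against mCherry and 0 to 1 at 4C for Kdm3aHA against Kdm3aWT. A lone library left in a group is assumed to vary like the others. Differences of summed TPM changed sign under size-factor scaling at E2C (-5.24 to 355.0), in mDKO from E2C to L2C (96.4 to -1157), for Kdm3aWT against mCherry (-309 to 1502), for Kdm3aHA against Kdm3aWT (815 to -213), and at 4C for Kdm3aWT (2603 to -6636), Kdm3aHA (2045 to -5554) and Kdm3aHA against Kdm3aWT (-558 to 1082). Leaving out a library gave -97.3 to 86.8 at E2C and -1234 to 118 for Kdm3aHA against Kdm3aWT at 4C, where 73.0 was another reversed value. The cause was not tested.

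Replicate numbers are only shared numbers, and no label ties same-numbered pools. With them as a block, calls were 4 at MII, 14 at E2C and 1 at 4C for Kdm3aHA against Kdm3aWT, and no other count moved by over 1.5 times. Deviations of same-numbered libraries correlated with 0.36 at MII, -0.02 at E2C and 0.05 at L2C, and with -0.10 to 0.18 among injected groups.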
